A study of Mus musculus with 2 samples.

Results

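Tenocytes were picked out of 2 single-cell RNA-seq libraries of injured mouse muscle by the genes they carried, and 238 of 13508 barcodes met the rule: 106 of 6722 in the wild-type (WT) library and 132 of 6786 in the library of the conditional Setdb1 knockout (KO). A barcode stands for 1 droplet, in most cases 1 cell. The members were chosen by their own counts: a barcode had to hold at least 5000 UMIs (unique molecular identifiers, each counting 1 captured RNA molecule) with at most 10% of them from mitochondrial genes. It also had to hold at least 3 UMIs of Tnmd, at least 5 UMIs of Fmod, Thbs4 and Comp together, and at most 1 UMI of the macrophage, endothelial and myogenic genes Csf1r, Cdh5 and Cdh15 together. Both libraries came from mice of 8 to 12 weeks. Muscle was cut up and digested with collagenase II and dispase, and a sort on Hoechst and propidium iodide stains preceded the 10x Genomics 3' v2 libraries. The protocol text names injured TA muscles and, in a passage that repeats it, hindlimb muscles. The KO animals carry a conditional deletion of Setdb1, a methyltransferase that writes the repressive trimethyl mark on lysine 9 of histone H3, in a study of muscle stem cells in regeneration. The sources used here do not give the Cre driver, and so whether tenocytes were meant to lose the gene, nor the exact genotype of the WT animals, the kind and day of the injury or the number of animals behind each library. Each group is 1 library, so no difference between WT and KO has a replicate check, no test across animals exists, and every interval in brackets (95%) covers counting error only.

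Tenocytes are the fibroblasts of tendon, and in a muscle digest they come from the tendon ends and the connective tissue joining muscle to tendon. They lay down bundles of type I collagen whose thickness is set by minor fibrillar collagens and by small leucine-rich proteoglycans such as fibromodulin. The transcription factor scleraxis (Scx) marks the lineage and drives its matrix genes, Mohawk (Mkx) acts beside it, and tenomodulin (Tnmd), a membrane glycoprotein, is the marker most used for mature tenocytes. Thrombospondin 4 (Thbs4) and cartilage oligomeric matrix protein (Comp) are pentameric proteins that bind collagen at tendon and at the junction with muscle. Fibro-adipogenic cells, the Pdgfra-positive mesenchymal cells of muscle, share much of this matrix and were the nearest comparison.

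Scleraxis is a basic helix-loop-helix factor and such factors bind E-boxes, CANNTG. The 250 bases before the annotated start are shown for 4 genes of this cell type, Tnmd and 3 genes that were well above fibro-adipogenic cells, in RefSeq sequence of build GRCm38.p6, 5' to 3' on the gene's strand. They were chosen because Tnmd holds no E-box in this window while the other 3 hold 1 CAGATG or its reverse complement CATCTG, in capitals. Tnmd, the membrane glycoprotein that heads the rule, lies at chrX:133850758-133851007 on the plus strand. Fmod, the proteoglycan fibromodulin, lies at chr1:134037004-134037253 on the plus strand. Chodl, the lectin chondrolectin, lies at chr16:78930698-78930947 on the plus strand, and Angptl7, a secreted angiopoietin-like protein, at chr4:148500463-148500712 on the minus strand.
Tnmd: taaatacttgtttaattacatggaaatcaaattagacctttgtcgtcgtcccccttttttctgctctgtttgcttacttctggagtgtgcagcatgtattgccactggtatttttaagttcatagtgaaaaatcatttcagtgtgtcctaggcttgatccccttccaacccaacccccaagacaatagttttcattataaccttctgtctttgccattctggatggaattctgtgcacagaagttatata
Fmod: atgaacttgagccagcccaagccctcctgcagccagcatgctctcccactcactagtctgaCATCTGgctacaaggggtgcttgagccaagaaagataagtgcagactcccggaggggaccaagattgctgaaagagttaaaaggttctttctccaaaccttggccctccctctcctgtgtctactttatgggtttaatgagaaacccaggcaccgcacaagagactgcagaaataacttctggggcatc
Chodl: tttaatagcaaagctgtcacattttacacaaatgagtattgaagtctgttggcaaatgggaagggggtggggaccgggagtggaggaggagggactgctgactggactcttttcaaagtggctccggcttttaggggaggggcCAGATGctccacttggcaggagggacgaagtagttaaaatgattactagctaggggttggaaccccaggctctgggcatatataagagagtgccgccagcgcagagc
Angptl7: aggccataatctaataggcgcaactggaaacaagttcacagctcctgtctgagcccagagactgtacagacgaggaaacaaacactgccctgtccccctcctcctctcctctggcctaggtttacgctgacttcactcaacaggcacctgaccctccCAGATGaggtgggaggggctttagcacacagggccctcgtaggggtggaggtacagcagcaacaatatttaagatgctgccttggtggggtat
The capitals start 189 bases before the start of Fmod, 107 before that of Chodl and 93 before that of Angptl7. Of 19 genes looked for (the 4 rule genes Tnmd, Fmod, Thbs4 and Comp and the 15 genes ranked furthest above fibro-adipogenic cells), 14 had an entry, 10 held a CANNTG in this window and 4 held CAGATG or CATCTG. Over all 32851 promoters of the table, each counted by itself, the shares were 66.2% and 14.4%. A gene with more than 1 entry, as Matn4 and Gas2, was counted if any entry held a match. The gene counts and these shares are therefore in unlike units. A match is a description of letters only, and a window without one says nothing about the factor.

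Tenocytes were a small share of either library. They made up 1.58% [1.29 to 1.90] of the barcodes that passed the depth and mitochondrial limits in the WT library. In the KO library the share was 1.95% [1.63 to 2.30]. The KO/WT ratio of 1.23 [0.948 to 1.61] was within counting error of no difference. With the depth minimum at 2000 UMIs, Tnmd at least 1 and the partner sum at least 2 it was 1.57 [1.30 to 1.91]. The sort and the depth minimum can both set this share. WT members had a median depth of 16988 UMIs and 3685 genes, KO members 18994.5 UMIs and 4124 genes. Fibro-adipogenic cells were deeper, at 23584 and 32842.5 UMIs (291 WT and 242 KO barcodes with at least 3 UMIs of Pdgfra, at least 5 of Dcn and none of Tnmd). Phagocytes, used as background, were shallower, at 12290 and 12503.5 UMIs (2751 and 3162 barcodes). No tenocyte barcode passed the limits in both libraries, while 8 barcodes of other cells did. Levels are given as CPM, a gene's UMIs per 1000000 UMIs, both summed over the cells of a set, and pairs of values are WT first and KO second unless stated. Levels are compared only within a gene. In these sums a gene carried by fewer cells and a gene with less RNA per cell cannot be told apart, so the number of cells is given where it matters.

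The rule genes are a description and no finding. Tnmd was 1406 CPM in WT and 2151 in KO tenocytes, Thbs4 4691 and 4634, Fmod 1207 and 1204, and Comp 527 and 447. After every cell was thinned to 5000 UMIs, Tnmd ran from 0 through a median of 5.5 to 43 UMIs per cell in the WT library and from 0 through 7.5 to 103 in the KO library. Thbs4 ran from 0 through 19.5 to 113 and from 0 through 17.5 to 169. For both genes the ranges overlap from 0 up to the highest WT cell, and the highest cells were KO cells. Comp was unlike the other 3: its median was 0 in both libraries, and the 11 WT and 14 KO cells with most of it held 57.1% and 66.2% of its UMIs. At the edge of the rule, 4 WT and 9 KO members had exactly 3 Tnmd UMIs, with Scx at 93.2 and 158 CPM. The 8 WT and 16 KO barcodes with 2 Tnmd UMIs that met all other limits had Scx at 69.3 and 55.7 CPM, and Fmod at 78.5 and 37.2. Scx was thus seen on both sides of the edge. Another 14 WT and 13 KO barcodes were left out by 4 or more UMIs of Csf1r, Cdh5 and Cdh15 although their Tnmd was 1046 and 1535 CPM. With 2 or 3 such UMIs, 3 WT and 17 KO barcodes were left out. Their Tnmd was 351 and 1879 CPM and their Scx 70.2 and 452.

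Tendon genes that the rule did not use were also well above the other cells. Scx, the lineage factor (chr15:76457452-76459458, GRCm38), was 222 CPM in WT and 372 in KO tenocytes, against 4.99 and 13.3 in fibro-adipogenic cells and 0.586 and 1.83 in phagocytes. At 5000 UMIs per cell it was seen in 44.3% [34.7 to 54.3] of WT and 58.3% [49.4 to 66.9] of KO tenocytes, in 3.09% and 3.31% of fibro-adipogenic cells and in 0.291% and 0.632% of phagocytes. Without thinning it was seen in 72 of 106 and 99 of 132 tenocytes. Mkx, the homeobox factor Mohawk, was low but followed the same order, at 36.6 and 40.1 CPM in tenocytes and 1.21 and 1.80 in fibro-adipogenic cells. Kera, the proteoglycan keratocan, was 213 and 273 CPM in tenocytes and 0 and 0.719 in fibro-adipogenic cells, where 3 UMIs would come to 0.405 and 0.359 CPM. Six2, a homeobox factor of tendon and connective tissue, was 17.6 and 25.5 CPM in tenocytes and 0 and 0.24 in fibro-adipogenic cells. Markers of cartilage and bone were divided. Of 22 listed, 11 had no UMI in WT and 9 none in KO tenocytes, among them Col10a1, Matn1 and Ibsp in both. The list still summed to 15508 and 10003 CPM in tenocytes against 3952 and 1823 in fibro-adipogenic cells, nearly all of it from Mgp, matrix Gla protein, and Spp1, osteopontin. Of the 6 members compared these were the 2 at least 2-fold higher in both libraries, with Spp1 at 2435 and 769 CPM against 248 and 141. Spp1 was not above phagocytes, which held 2556 and 2751 CPM. Sox9, the cartilage factor, was below its level in fibro-adipogenic cells (19.1 and 21.3 CPM against 67.2 and 77.5).

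**Figure D1:**
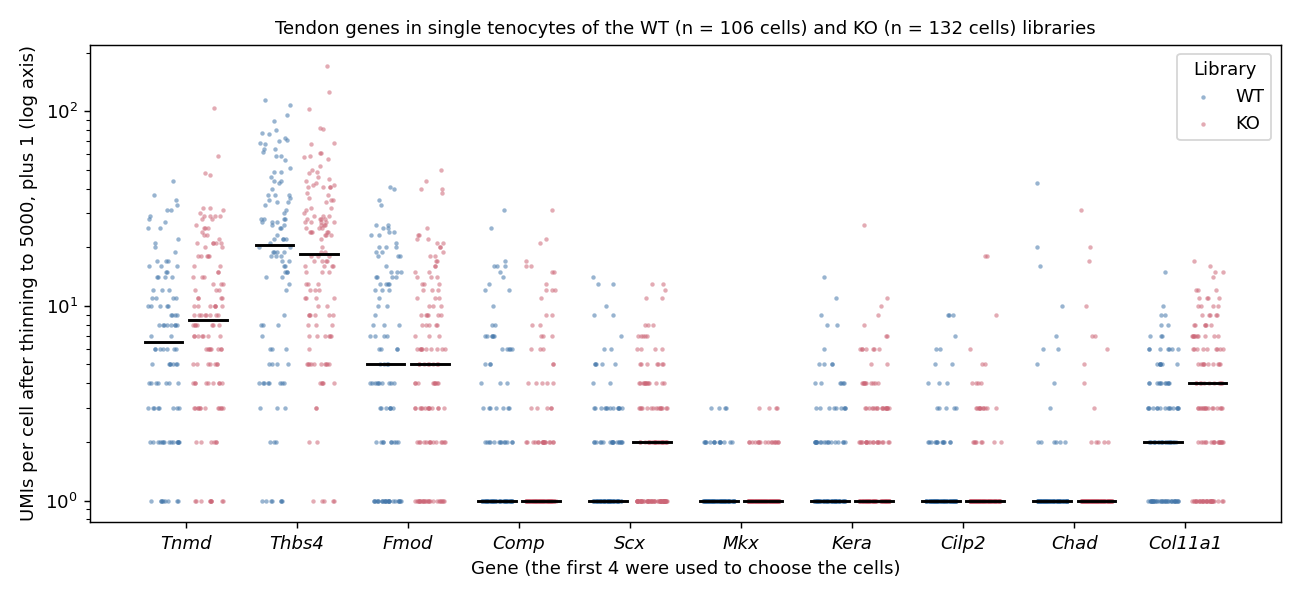
UMIs of 10 tendon genes in each tenocyte after thinning to 5000 UMIs, plus 1, on a log axis; points are cells (106 WT, 132 KO) and bars are medians. Tnmd, Thbs4 and Fmod are spread over most cells of both libraries, while Comp, Cilp2 and Chad sit at 0 in most cells and high in a few.

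Against fibro-adipogenic cells, 101 of 9427 compared genes (1.07%) were at least 2-fold higher in tenocytes in both libraries, and 150 (1.59%) at least 2-fold lower, on log2 of CPM + 5. A compared gene had at least 50 UMIs over the sums. The 15 genes ranked furthest above were Mmp13, Chad, Kera, Ptx4, Cilp2, Chodl, Angptl7, Prph, Slpi, Scx, Matn4, Col11a1, Kctd1, Gas2 and Abi3bp, left of the dotted line in the plot of both cell types. Several are matrix proteins. Abi3bp, a secreted collagen-binding protein, was 1836 and 1539 CPM against 239.6 and 208. Col11a1, a minor fibrillar collagen that seeds fibrils, was 347 and 677 CPM against 20.1 and 26.8. Cilp2, a relative of cartilage intermediate layer protein, was 94.8 and 104.6 CPM with 1 UMI in fibro-adipogenic cells of either library. Matn4, a matrilin, was 90.3 and 70.1 CPM against 2.29 and 2.52. Ptx4, a pentraxin, was 242 and 201 CPM against 0.135 and 0.479, and was seen in 43.4% and 43.2% of thinned tenocytes. Prph, the intermediate filament protein peripherin best known from neurons, was 73.3 and 90.0 CPM against 0.405 and 1.32, in 24 WT and 38 KO tenocytes. Slpi, a protease inhibitor, rested on few cells, 9 WT and 10 KO.

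The 8 genes ranked furthest below were Pi16, Efemp1, Ccl11, Cxcl9, Ube2c, Chl1, Ms4a4d and Abca8a. Pi16, which marks a fibroblast population of perivascular connective tissue, was 3.01 and 1.40 CPM in tenocytes and 64.2 and 57.6 in fibro-adipogenic cells. Efemp1, the matrix protein fibulin 3, was 8.03 and 4.19 CPM against 88.0 and 54.0. Of 14 fibro-adipogenic markers compared, 8 were at least 2-fold lower in tenocytes in both libraries and none higher. Pdgfra, which the fibro-adipogenic rule used, was 84.3 and 52.0 CPM in tenocytes. Of 8 fibrillar collagens compared only Col11a1 was 2-fold apart in both libraries. Of 25 procollagen processing genes none was. Mgp, matrix Gla protein, an inhibitor of calcification, was 12972 and 9080.0 CPM in tenocytes and 3564 and 1460.3 in fibro-adipogenic cells, and Prg4, the lubricant lubricin, 2377 and 1179.9 against 468 and 235.

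**Figure D2:**
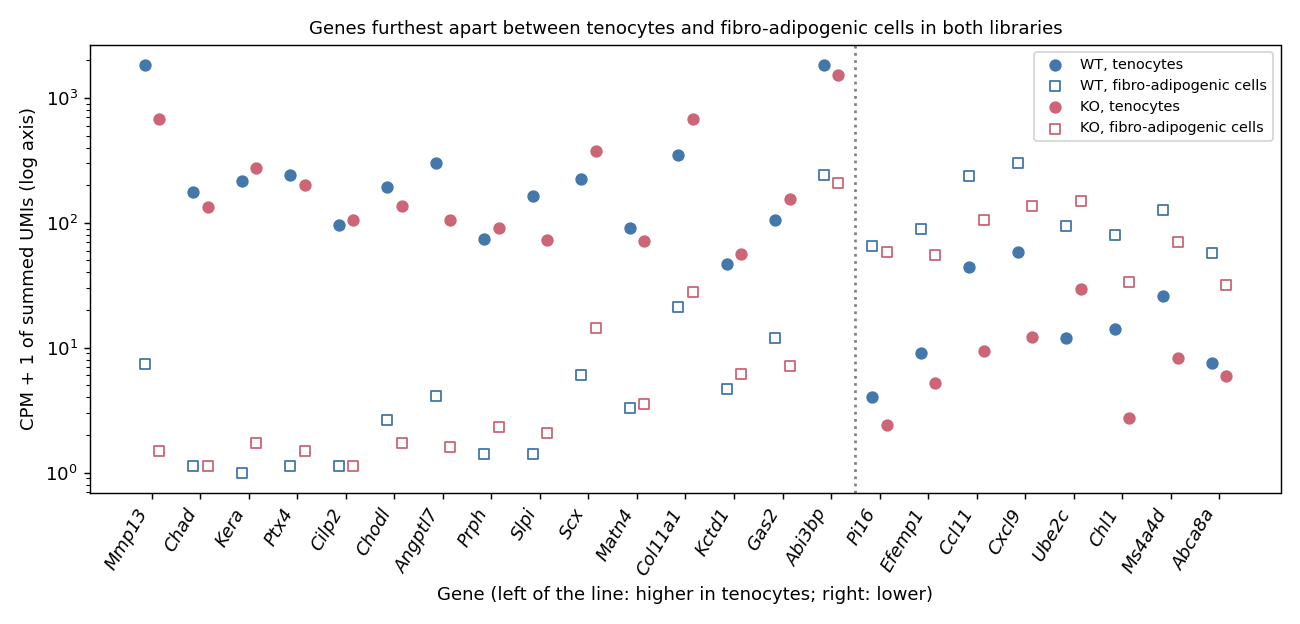
CPM + 1 (log axis) of the 15 genes ranked furthest above and the 8 ranked furthest below fibro-adipogenic cells, filled circles for tenocytes and open squares for fibro-adipogenic cells, WT in blue and KO in red. Chad, Kera, Ptx4 and Cilp2 are near the lower edge in fibro-adipogenic cells of both libraries.

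Markers of other cells were present at low levels. Of 14 phagocyte markers all had UMIs, and their summed level was 1712 CPM in WT and 1558 in KO tenocytes, against 57590 and 55452 in phagocytes. In fibro-adipogenic cells the sums were 942 and 670 CPM. In the WT library 7 and in the KO library 13 of the 14 lay under 2 times the level that free RNA of that library could give. That level was scaled by Ptprc, itself on the list, in WT and by Mylpf in KO, so these counts do not compare between libraries. Lyz2 was 315 and 427 CPM in tenocytes and 14815 and 15394 in phagocytes. Cd74 was 536 and 202 CPM, but 62.4% of its WT UMIs lay in 1 barcode. The 10 endothelial markers summed to 15.1 and 22.7 CPM, the 8 myogenic markers to 31.6 and 36.6, and the 7 lymphocyte markers to 1.00 and 5.23. Pax7 and Sox10 had no UMI in tenocytes of either library. The 9 mural markers summed to 318 and 665 CPM, mostly through Acta2, and the 10 muscle fibre markers to 28.1 and 30.7. Between the libraries 8 of 11 compared phagocyte markers were higher in KO tenocytes and 3 lower, with a median log2 KO/WT of 0.20 that ran from -0.77 to 1.66 over the alternatives. The part of such RNA in the values that follow was not tested.

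Tenocytes varied among themselves along Tnmd. After thinning, each library was divided by Tnmd into 3 sets of about equal size, and the set with most Tnmd (Tnmd-high, 35 WT and 44 KO cells) was compared with the set with least (Tnmd-low, as many cells). Of 990 genes compared, 62 (6.26%) were at least 1.5-fold higher in Tnmd-high cells in both libraries and 51 (5.15%) at least 1.5-fold lower. The 6 furthest above were Angptl7, Cilp2, Scx, Abi3bp, Kera and Fmod, the last used by the rule. Scx was 80.0 CPM in Tnmd-low and 451 in Tnmd-high WT cells, and 81.8 and 650.0 in the KO library. The pairs that follow are in this order. Kera was 80.0 and 411 CPM in WT and 54.5 and 577 in KO cells. Abi3bp was 429 and 4160.0 CPM in WT and 536 and 2968 in KO cells. Mgp differed in the same direction, at 5971 and 20891 CPM in WT and 5005 and 12582 in KO cells, as did the metalloproteinase inhibitor Timp1 (754 and 2046 in WT, 900.0 and 1568 in KO). Col1a1 differed less, 8920.0 and 10680.0 CPM in WT and 10832 and 17145 in KO cells.

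The 6 genes furthest below in Tnmd-high cells were Sfrp1, H19, Itm2a, Cd74, Mfap5 and Ly6a. Sfrp1, a secreted Wnt antagonist, was 291 CPM in Tnmd-low WT cells and 241 in Tnmd-low KO cells, with no UMI in the Tnmd-high cells of either library. H19, an imprinted non-coding RNA, was 343 and 0 CPM in WT and 423 and 9.09 in KO cells. Ly6a, the surface antigen Sca-1 of fibro-adipogenic cells and progenitors, was 983 and 74.3 CPM in WT and 405 and 105 in KO cells. Mfap5, a protein of elastic microfibrils, was 1097 and 166 CPM in WT and 845 and 186 in KO cells. Of these 6, Ly6a is on the list of fibro-adipogenic markers and Cd74 on that of phagocytes. In the WT library the Tnmd-low cells were also deeper before thinning (median 23416 UMIs against 13600). In the KO library the depths were close (18722.5 and 18723.5). The genes were chosen for the same direction in both libraries, and the part of depth in these values was not tested.

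**Figure D3:**
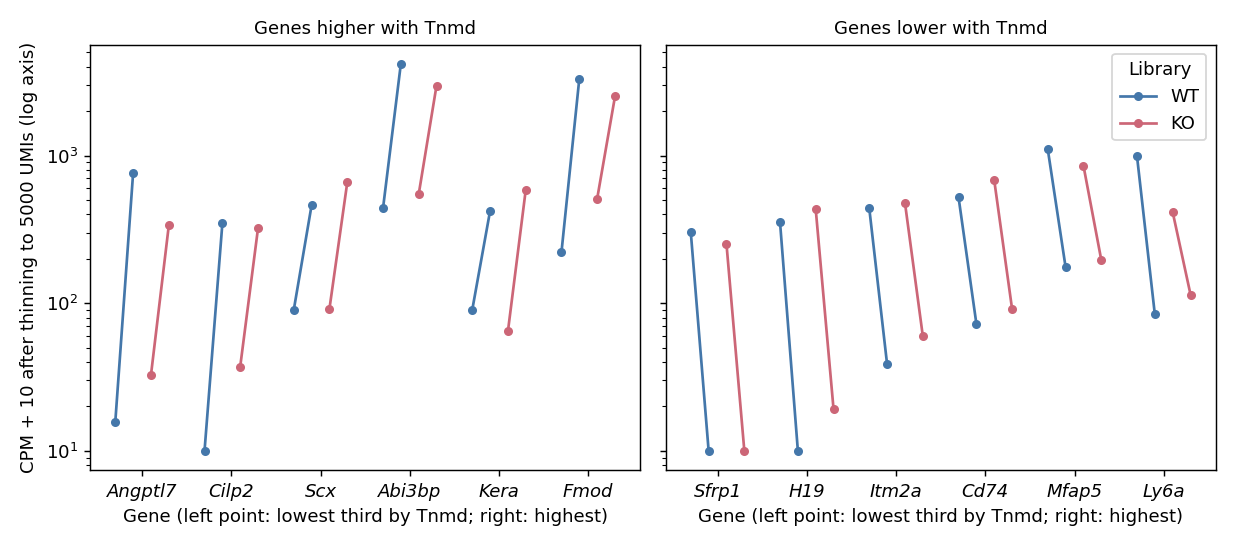
CPM + 10 (log axis) after thinning, in Tnmd-low (left point of each line) and Tnmd-high tenocytes (right point), for the 6 genes furthest above and the 6 furthest below, WT in blue and KO in red. The lines of a gene slope the same way in both libraries, as the choice of genes requires.

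A few tenocytes carried Chad, the collagen-binding proteoglycan chondroadherin of cartilage and tendon insertion. It was chosen for this description after its values were seen. Its UMIs came from 20 WT and 21 KO cells, and after thinning from 16 and 15. Those cells held more of several other matrix genes in both libraries. Comp, which helped to choose the cells and is given as a description only, averaged 10.5 UMIs per thinned cell with Chad and 1.56 without it in the WT library, and 9.40 and 1.48 in the KO library. Cilp2 averaged 2.50 and 0.444 UMIs in WT and 4.40 and 0.265 in KO cells. Angptl7 averaged 9.38 and 0.389 UMIs in WT and 4.67 and 0.0855 in KO cells, and Abi3bp 34 and 6.0 in WT and 27.6 and 5.44 in KO cells. Postn, periostin, ran the other way, at 2.56 and 13.0 in WT and 6.0 and 15.6 in KO cells. Spp1, osteopontin, and Mmp13, collagenase 3, were far higher in Chad cells of the WT library (52.5 against 7.08, and 31.5 against 7.6 UMIs) and close in the KO library (6.20 against 5.03, and 4.8 against 4.70). Median depth before thinning was 16067.5 UMIs with and 17215.5 without Chad in the WT and 15954 and 21182 in the KO library.

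Ptx4 and Chodl were seen together in a larger set, also singled out after their values were seen. Of the thinned cells with Chad, 9 of 16 in the WT and 11 of 15 in the KO library also held Ptx4. Among cells without Chad, 37 of 90 and 46 of 117 held Ptx4. Chodl went the other way in the WT library only, in 2 of 16 cells with Chad and 35 of 90 without. In the KO library it was in 5 of 15 cells with Chad and 32 of 117 without, so its share was not lower with Chad. Chodl was seen in 30 of 46 thinned WT cells with Ptx4 and in 7 of 60 without it, and in 30 of 57 and 7 of 75 KO cells. Mgp averaged 122 UMIs in WT cells with Ptx4 and 52.9 in those without, and 95.1 and 25.4 in KO cells. Mfap5 was lower in Ptx4 cells of both libraries (0.848 against 4.17 in WT, 0.579 against 3.29 in KO). Cells with Ptx4 were shallower before thinning, with medians of 13970 and 15884 UMIs against 19016 and 24427. Across thinned cells (106 WT, 132 KO) Spearman's rho was 0.60 and 0.55 for Ptx4 with Chodl, 0.64 and 0.57 for Postn with Aspn, and -0.58 and -0.47 for Mgp with Mfap5. The cells of 1 library share that library, and these values are a description.

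Between the libraries, 7610 genes had at least 50 UMIs over the WT and KO tenocyte sums. Of these 86 (1.13%) were at least 2-fold higher in KO tenocytes and 64 (0.841%) at least 2-fold lower, while 64.7% were higher and 35.3% lower by any amount. The median log2 KO/WT over all of them was 0.10, and list medians are read against it. With TMM factors the median was 0.02 and the counts were 72 higher and 78 lower. Without the cycling cells described further on, 46 genes were at least 2-fold higher. Setdb1 itself had 33 WT and 34 KO UMIs in tenocytes, 16.6 and 11.9 CPM (KO/WT 0.716 [0.430 to 1.19]), a difference within counting error. In fibro-adipogenic cells it was 12.8 and 17.1 CPM. A 3' tag can also arise from a transcript that lacks the deleted exons, so this count does not check the deletion.

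The collagens that build tendon fibrils were all higher in KO tenocytes. Of 9 fibrillar collagens compared, 9 were higher and none reached 2-fold, with a median log2 KO/WT of 0.55. The same genes had a median of 0.59 in fibro-adipogenic cells. Col1a1, the main chain of type I collagen, was 9067 CPM in WT and 13419 in KO tenocytes (1.48 [1.45 to 1.51]). After thinning its UMIs per cell ran from 4 through a median of 44 to 150 in WT and from 3 through 60.5 to 295 in KO cells, so that the ranges overlap up to the highest WT cell and the highest cells were KO cells. Col11a1 was 1.95-fold [1.79 to 2.13] higher, and Col5a1, a nucleator of fibrils, 1.63-fold [1.51 to 1.77], at 443 and 724 CPM. Among 14 other collagens 11 were higher, 2 of them 2-fold, with a median of 0.46. Col12a1, a fibril-associated collagen of tendon, was 369 and 697 CPM. Col22a1, a collagen of the junction of muscle and tendon, was 12.0 and 50.6 CPM (4.2 [2.71 to 6.77]), in 11 WT and 27 KO cells, with at most 1 UMI in fibro-adipogenic cells of either library. Col14a1, another fibril-associated collagen, was lower, at 327 and 211 CPM. Of 27 genes of procollagen processing and secretion 25 were higher, none 2-fold, with a median of 0.28. Plod2, the lysyl hydroxylase of collagen telopeptides, was 183 and 283 CPM, while the collagen chaperone Serpinh1 was 2147 and 2135.

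**Figure D4:**
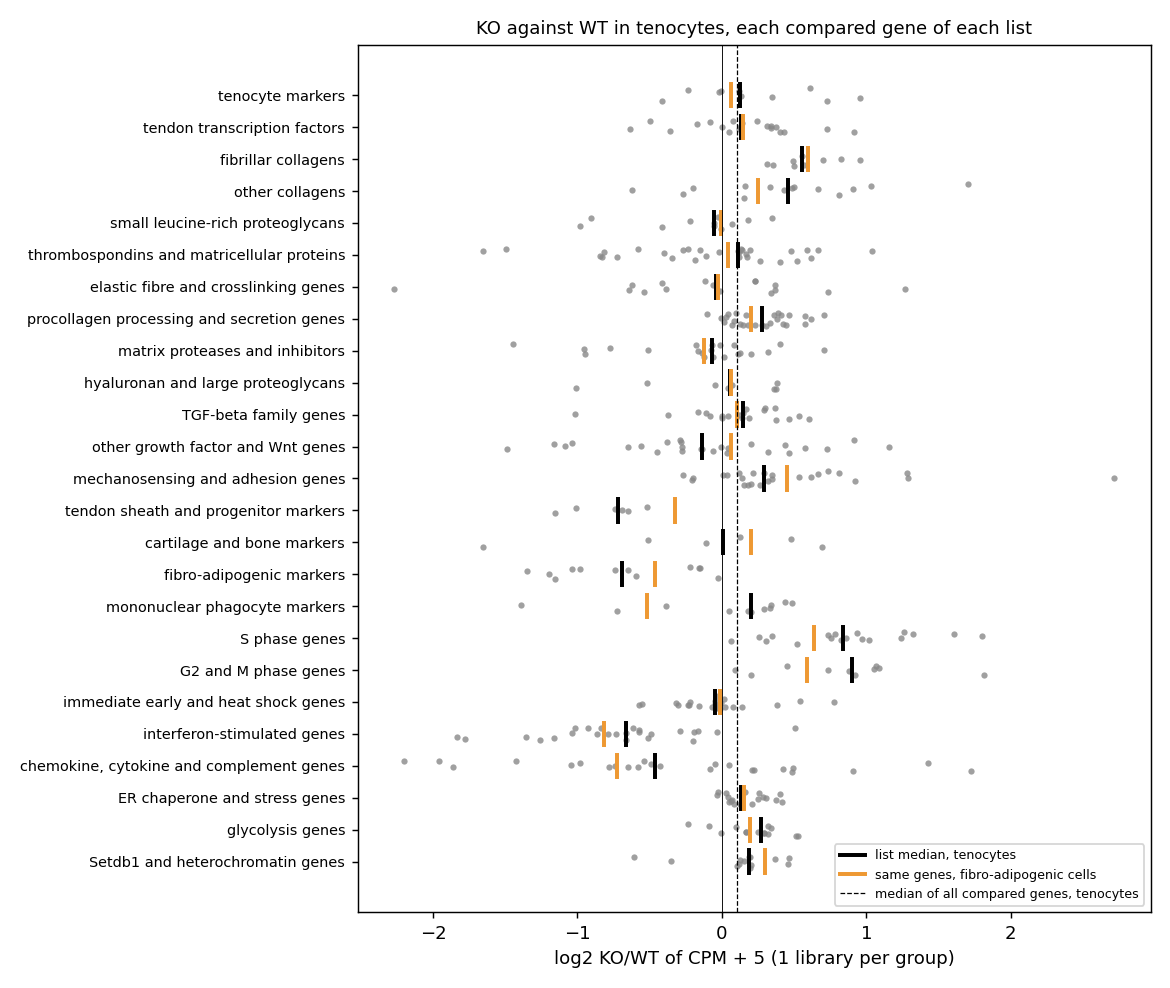
Log2 KO/WT (CPM + 5) of each compared gene in tenocytes, by list (grey points), with the list median in tenocytes (black), the median of the same genes in fibro-adipogenic cells (orange) and the median of all compared genes (dashed). The fibrillar collagen points all lie right of 0 and the fibro-adipogenic marker points all lie left of it.

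The proteoglycans and other matrix proteins did not share one direction. Of 11 small leucine-rich proteoglycans 3 were higher and 8 lower, with a median of -0.05. Dcn, decorin, was 5551 and 5439 CPM and Aspn, asporin, 2106 and 2026, while Prelp, which anchors basement membrane to collagen, was 156 and 76.4 CPM (0.491 [0.411 to 0.586]). Of 31 thrombospondins and matricellular proteins 16 were higher and 15 lower, with a median of 0.11. Tnc, tenascin C, which is made in loaded and healing tendon, was 209 and 436 CPM (2.08 [1.86 to 2.33]), and 363 and 979 in fibro-adipogenic cells. Spp1 was 2435 and 769 CPM (0.316 [0.300 to 0.332]), although it was seen in 64 WT and 91 KO cells. After thinning the 11 WT cells with most Spp1 held 72.4% of its UMIs and the 14 KO cells with most held 86.8%. Clu, the extracellular chaperone clusterin, was 57.2 and 17.1 CPM in tenocytes and 29.8 and 8.99 in fibro-adipogenic cells.

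Of 16 elastic fibre and crosslinking genes 7 were higher and 9 lower, with a median of -0.04. Eln, elastin, stood lowest at 406 and 80.2 CPM (0.197 [0.170 to 0.229]), in 24 WT and 31 KO cells. Without the cell with most Eln in each library its log2 KO/WT was -2.37, against -2.27 with it. Fbn2, the fibrillin of developing microfibrils, was the other way, 37.1 and 96.3 CPM (2.59 [2.0 to 3.40]) in 40 and 73 cells. Of 21 matrix proteases and inhibitors 8 were higher and 13 lower. Mmp13 was 1835 and 672 CPM (0.366 [0.346 to 0.387]) in 40 WT and 32 KO cells. The gelatinase Mmp2 was 686 and 654 CPM and the inhibitor Timp2 1149.6 and 1162. Adamts5, an aggrecanase, was 112 and 55.8 CPM. Of 8 hyaluronan and large proteoglycan genes 5 were higher and 3 lower. Prg4, the one past 2-fold, was 2377 and 1179.9 CPM in tenocytes (0.496 [0.475 to 0.519]) and 468 and 235 in fibro-adipogenic cells.

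The tendon transcription factors stood near all genes as a list. Of 20 compared 14 were higher and 6 lower, none 2-fold, with a median of 0.13. Scx was 1.67-fold [1.5 to 1.87] higher in KO tenocytes. The KO/WT ratio of the share of thinned cells with Scx was 1.32 [0.904 to 1.93] at 5000 UMIs and 1.69 [1.08 to 2.7] at 2500 UMIs, so whether the interval holds 1 depends on the thinning. Egr1, a factor induced by load, was 853 and 939.6 CPM, and Meox1 119.9 and 75.3. Of 20 genes of the TGF-beta family, which induces Scx and collagen, 14 were higher, with a median of 0.14. Their ligands Tgfb2 (93.8 and 106 CPM) and Tgfb3 (99.9 and 110.2) differed within counting error. Mstn, myostatin, was 18.6 and 6.63 CPM, in 7 and 4 cells. Of 26 other growth factor and Wnt genes 10 were higher and 16 lower. Igf1, insulin-like growth factor 1, was 675 and 918 CPM. Its binding protein Igfbp5 was 537 and 259, the Wnt modulator Sfrp2 655 and 306, and Angptl7 302 and 104 CPM, the last in 21 WT and 12 KO cells.

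Contractile and adhesion genes were mostly higher. Of 25 mechanosensing and adhesion genes 22 were higher, 3 of them 2-fold, with a median of 0.29 against 0.45 for the same genes in fibro-adipogenic cells. Acta2, smooth muscle actin, was 259 and 638 CPM (2.46 [2.23 to 2.72]) in 53 and 78 cells. Tagln, an actin-binding protein of the same cells, was 158 and 391 CPM (2.48 [2.18 to 2.81]). The KO cell with most of each gene held 32.3% of Acta2 and 29.2% of Tagln UMIs, and without the cell with most in each library the log2 KO/WT was 1.02 and 1.01. These 2 and calponin, Cnn1, were the genes past 2-fold. Cnn1 had no UMI in WT tenocytes and 95% of its KO UMIs in 1 barcode. Tpm1, a tropomyosin, was 444 and 741 CPM, and Gja1, the gap junction protein that couples tenocytes, 76.3 and 137. The force channel Piezo1 was 45.7 and 51.3 CPM.

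Marker genes of fibro-adipogenic cells were lower in KO tenocytes. Of 12 fibro-adipogenic markers compared all 12 were lower, 4 of them 2-fold, with a median log2 of -0.70. In fibro-adipogenic cells themselves the same genes had a median of -0.47. Ly6a was 497 and 220.1 CPM (0.443 [0.40 to 0.490]), Clec3b, tetranectin, 85.8 and 30.7, and Apod, a lipid carrier, 972 and 472. In fibro-adipogenic cells Apod was 1617 and 373 CPM, and the chemokine Cxcl14, at 299 and 149 CPM in tenocytes, was 1298 and 328. The 6 tendon sheath and progenitor markers compared were all lower too, with a median of -0.72. They include Ly6a, Pdgfra and Cd34 again, so both lists rest partly on the same genes. Tppp3, a marker of sheath cells, was 65.7 and 38.7 CPM, and 44.3% of its WT UMIs lay in 1 barcode. Without the top barcodes it was 36.6 and 34.2 CPM.

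Cell cycle genes were higher in KO tenocytes. Of 18 S phase genes compared all were higher, 6 of them 2-fold, with a median of 0.84, and of 10 G2 and M phase genes all were higher, 4 of them 2-fold, with a median of 0.90. The same genes had medians of 0.64 and 0.59 in fibro-adipogenic cells. Top2a, the topoisomerase of dividing cells, was 19.1 and 79.5 CPM in 4 WT and 30 KO cells. The helicase Hells was 12.5 and 56.2 CPM in 9 and 34 cells. Among the genes ranked highest in KO tenocytes, H1f5, H2ac8, Hist1h2ap and H3c3 are histone genes and Pclaf binds the replication clamp. Histone genes have near-identical copies, so reads may be split among them, and 85.0% to 94.7% of the WT UMIs of these 4 lay in 1 barcode. At 5000 UMIs, 6 of 106 WT tenocytes (5.66% [2.11 to 11.9]) and 22 of 132 KO tenocytes (16.7% [10.7 to 24.1]) held 3 or more G2 and M phase UMIs. The shares were 12.7% and 25.2% in fibro-adipogenic cells and 4.25% and 4.40% in phagocytes. Without those cells the S phase median was 0.16, and Pclaf stood at -0.28. Mki67 stood at -0.37, but it is on the list that marked those cells, so its value depends on the filter. It had 33 UMIs in WT tenocytes, 22 of them in 1 barcode.

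Interferon-stimulated genes were lower in KO tenocytes. Of 25 compared 24 were lower, 7 of them 2-fold, with a median of -0.67, and the same genes had a median of -0.82 in fibro-adipogenic cells. Isg15, a ubiquitin-like modifier, was 243 and 64.5 CPM (0.265 [0.223 to 0.315]) in 61 and 49 cells. It was 583 and 231 CPM in fibro-adipogenic cells and 709 and 344 in phagocytes. Irf7, the factor that amplifies interferon production, was 140.0 and 37.3 CPM. The exception Ifit2 was 10.5 and 17.1 CPM (1.62 [0.955 to 2.85]). Of 24 chemokine, cytokine and complement genes 9 were higher and 15 lower. Cxcl12, which holds progenitors in place, was 343 and 163 CPM, C3 152 and 86.1, and Cxcl9, an interferon-gamma target, 57.7 and 11.2. Cxcl2, a neutrophil attractant, was higher at 93.8 and 322 CPM (3.43 [2.93 to 4.04]) in 26 and 60 cells. Phagocytes held more of it, at 1346 and 2543 CPM.

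Stress and housekeeping lists stood nearer to all genes. Of 24 immediate early and heat shock genes, which digestion of tissue can raise, 7 were higher and 17 lower, with a median of -0.05. Jun was 2174 and 2193 CPM. Of 19 endoplasmic reticulum chaperone genes 17 were higher with a median of 0.13, near the median of all genes. Of 14 glycolysis genes 11 were higher with a median of 0.27. Of 13 genes of Setdb1 and heterochromatin 11 were higher and 2 lower, none 2-fold. The lower 2 were Setdb1 and Resf1, whose product represses retroelements together with Setdb1 (90.3 and 57.5 CPM, 0.637 [0.513 to 0.791]). In the WT library 23.3% of Resf1 UMIs lay in 1 barcode, and without the top barcodes Resf1 was 69.2 and 54.8 CPM.

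The remaining genes ranked by their ratio ranged from those spread over many cells to those of 1 cell. AA465934 (chr11:83291699-83294632) was 9.53 and 72.9 CPM, in 12 WT and 83 KO tenocytes, and it was 11.1 and 44.4 in fibro-adipogenic cells and 4.69 and 23.6 in phagocytes. AC160336.1 (chr14:44544055-44637201) was 302 and 3.84 CPM in tenocytes, in 68 and 8 cells, and as far apart in fibro-adipogenic cells (269 and 3.35) and phagocytes (379 and 4.11). Gsta4, a glutathione transferase, was 9.03 and 77.8 CPM (8.61 [5.32 to 14.8]) in 10 and 17 tenocytes, and 1.35 and 1.92 in fibro-adipogenic cells. After thinning, 7.55% of WT and 8.33% of KO tenocytes held Gsta4. For Ccl5 and Ccl12, 96.5% and 86.2% of the KO UMIs lay in 1 barcode. All 118 WT UMIs of Cxcl13 came from 1 cell, as did 84.3% of those of Penk. Il11 was 114 and 20.9 CPM from 5 and 4 cells, with 95% of its KO UMIs in 1 barcode. Gdf15, a stress cytokine, was lower by CPM (85.8 and 26.9) yet was seen in 14 WT and 45 KO cells. Lists taken from the KO/WT differences of the myogenic cells of these same libraries are no independent evidence. Of the genes higher there 7 of 9 were higher in KO tenocytes, and Resf1 was lower. Of those lower there 11 of 11 were lower, AC160336.1 and Irf7 among them. Over all compared genes 64.7% were higher and 35.3% lower.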

How the data were processed

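Single-cell RNA-seq was measured in 1 WT and 1 KO library. The matrices as deposited give the UMI count of each gene in each barcode, as whole numbers, for 55487 genes and every barcode (2821644 WT, 3331422 KO), with 121703522 and 138667420 UMIs, and per the values in them the authors applied no normalization. Per the submitters' processing notes, STARsolo 2.7.9a, STAR 2.7.8a, Seurat 4.0.1 and GRCm38 were used. No label or header names the annotation release or how reads were counted. Coordinates came from GENCODE M21 (GRCm38), in which 55141 listed IDs were found.

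Cells were chosen by the rule on UMIs given above, with no clustering. The members and gene lists were chosen with earlier results of these data known. UMIs were summed per cell set and library and scaled to CPM. Genes needed 50 UMIs over both sums. Log2 ratios used a pseudocount of 5 CPM. Exact Poisson (CPM), Clopper-Pearson (shares) and conditional binomial (ratios) intervals are at 95% and cover counting error only. Ratios of shares treat cells as Poisson counts. Shares of cells with a UMI used cells thinned to 5000 UMIs. With 1 library per group no test was run and no p-value computed. Phagocytes were barcodes with at least 3 UMIs of Csf1r, none of Tnmd or Pdgfra and at most 1 of Cdh5 and Cdh15 together. Free RNA was read from barcodes with 20 to 100 UMIs and scaled by the marker of other cells with the smallest ratio to it (Ptprc in WT, 0.0241, Mylpf in KO, 0.0385). Scrublet in scanpy 1.11.5 marked 0 barcodes at its own threshold, so doublets stayed in and the highest scores (361 WT and 368 KO barcodes, 6 and 1 tenocytes) were removed as an alternative. The intervals were run on simulated Poisson counts, the setting they assume. That does not check them for genes whose UMIs gather in a few cells.

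Named genes were the 12 highest and 12 lowest KO/WT ratios by the interval bound nearer 1, among genes with 50 CPM in 1 library, the 15 highest and 8 lowest against fibro-adipogenic cells by the bound of the library with the smaller ratio, the 6 at either end of the comparison along Tnmd, and any list member. Alternatives covered the depth, mitochondrial, Tnmd, partner and other-cell limits, TMM (edgeR 4.0.16) and median-of-ratios scaling, per-cell means, thinning, UMI minimums, the pseudocount, and, added after seeing the data, leaving out cycling cells or each gene's top barcode. The cycling cells left out were marked by the G2 and M phase list without Hmgb2. Promoters were matched by symbol to RefSeq (GRCm38.p6).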

Additional observations from a re-analysis of the deposited data

Results flagged for a closer look

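Of 7245 genes with at least 50 UMIs in tenocytes and in fibro-adipogenic cells, 3 were at least 2-fold apart between the libraries in opposite directions in these cell types. Another 32 were at least 2-fold apart in the same direction in both cell types. With 1 library per group the opposite direction of the 3 was not tested. Rgs5, a regulator of G protein signalling that marks pericytes, had a log2 KO/WT of -1.88 in tenocytes (32.6 and 5.23 CPM) and was 3.64 and 64.6 CPM in fibro-adipogenic cells. In tenocytes 87.7% of its WT UMIs lay in 1 barcode. Ccl5, a chemokine of lymphocytes and macrophages, had a log2 KO/WT of 4.50 in tenocytes (4.52 and 209.6 CPM) and was 16.1 and 2.40 CPM in fibro-adipogenic cells. In tenocytes 96.5% of its KO UMIs lay in 1 barcode. Gfod2, an oxidoreductase-domain gene, had a log2 KO/WT of 1.73 in tenocytes (6.52 and 33.1 CPM, in 13 and 18 cells) and was 22.7 and 6.59 CPM in fibro-adipogenic cells. The KO tenocyte with most of it held 31.6% of its UMIs.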

How the results depend on the processing

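No paired analysis was possible because each group has 1 library and the labels give no replicate numbers. Of the main results' values under the alternatives 164 stayed close and 15 moved. A reversal was not scored for shares and counts. For list medians it was scored only past 2-fold, which no main list reached. The medians of fibrillar collagens, procollagen processing genes, fibro-adipogenic markers and interferon-stimulated genes kept their sign. So did those of the S phase and the G2 and M phase genes. A minimum of 2000 UMIs with Tnmd at least 1 and partners at least 2 gave 155 WT and 333 KO members, with 194 genes 2-fold higher in KO tenocytes in place of 86. That setting turned Gdf15 (0.16), Rgs5 (0.64) and Cd74 (0.16) to higher in KO. Without the highest Scrublet scores Gdf15 (1.11) and Cd74 (0.82) turned too. Thinning gave 39 genes higher and 19 lower, a fibrillar collagen median of 0.36 and 64 genes higher than fibro-adipogenic cells. Per-cell means gave 40 lower and a fibrillar collagen median of 0.39. A minimum of 100 UMIs gave 49 higher, and a pseudocount of 1 CPM 162 higher and 103 lower. Without cycling cells 46 were higher, the fibrillar collagen median was 0.67, the S phase median 0.16, and Pclaf (-0.28) reversed. Mki67 (-0.37) did too, but its own UMIs helped to choose the cells left out. Sets by Tnmd without thinning gave 151 genes higher and 220 lower of 3350. Thinning leaves fewer UMIs, and stricter settings leave fewer cells or genes. The causes of the changes were not tested. Sums over 106 and 132 cells limit every value: genes under about 50 UMIs were not compared, and a few cells can carry a gene.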
